A study of Mus musculus with 6 samples.

Results

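The genes described here build the vesicle coats, cargo receptors and protein channel of the early secretory pathway, and their expression was compared between CD11c+ spleen cells of Atg16L1 hypomorphic mice and of wild-type mice. They are the COPI and COPII coat genes, the p24 cargo protein genes and the translocon genes. Members were taken by gene symbol (Tmed with a number, Sec13, Sec16, Sec22, Sec23, Sec24, Sec31, Sec61, Sec62, Sec63, the Cop coatomer genes, Arcn and Ssr), from probe sets that name exactly 1 gene. Where a gene had several, the brightest on average across the 6 arrays was used. This gave 39 members of 12393 genes on the array, carried by 67 probe sets. The values used to pick the probe set were mean levels over both groups, not differences between them. Tmed2 and Sec61g, which share their probe sets with other annotated genes, and Sec22c, Sec24a, Sec31b, Ssrp1 and Tmed1 were not analysed here.

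In the early secretory pathway, a new secretory or membrane protein enters the endoplasmic reticulum (ER) through the SEC61 channel, helped by the translocon-associated protein (TRAP) complex, SEC62 and SEC63. It leaves the ER in vesicles coated by COPII, an inner layer of SEC23 and SEC24 inside a cage of SEC13 and SEC31. COPI, the coatomer, returns escaped proteins and receptors from the Golgi to the ER. The p24 proteins, encoded by the Tmed genes, cycle between these compartments, bind both coats with their short tails and load GPI-anchored and other cargo. Dendritic cells and macrophages use this route to put receptors, MHC molecules and cytokines on their surface or outside the cell.

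Both groups were untreated mice on the C57BL/6J background, 8 weeks of age, whose CD11c+ spleen cells were selected with magnetic beads. There were 3 arrays of Atg16L1 hypomorphic mice and 3 arrays of wild-type mice. Atg16L1 works in autophagy, in the conjugation of LC3 to membranes. A hypomorphic allele is one of reduced function, and the labels do not say how this allele was made. Nor do they state that the arrays of a group are separate mice, and p-values therefore cover array-to-array spread that may be technical. Atg16l1 averaged 6.03 ± 0.16 in hypomorph and 7.07 ± 0.04 in wild type on the log2 scale (SD, n = 3 each; adjusted p = 0.00163, limma).

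CD11c+ selection was checked against markers. Itgax, which encodes CD11c, was present in both groups, at 9.94 ± 0.07 in hypomorph and 10.32 ± 0.13 in wild type (called lower in hypomorph, adjusted p = 0.0341 with limma). Of 13 conventional dendritic cell markers, 3 were called higher (Cd83 1.09, Sirpa 0.96 and Xcr1 0.46 on the log2 scale) and 3 lower (Ciita -0.93, Zbtb46 -0.63 and Itgax -0.37). Macrophage markers moved with genotype, with 15 of 16 higher and 0 lower in hypomorph, and the mean of this list ran from 10.76 to 10.84 in hypomorph arrays and from 8.93 to 9.51 in wild-type arrays. B cell markers had 0 of 9 higher and 5 lower, with list means of 7.75 to 8.25 in hypomorph against 8.32 to 8.75 in wild type. Plasma cell markers, from cells with a very large secretory apparatus, had 0 of 11 higher and 2 lower, with list means of 7.23 to 7.37 in hypomorph against 7.43 to 7.95 in wild type. The 2 called lower were Jchain (-1.73) and Pou2af1 (-0.82). Of the 11 changes 2 were positive, Prdm1 and Irf4 (0.54 each, not called), and Xbp1 changed by -0.02. Plasmacytoid dendritic cell markers had 3 of 9 higher and 1 lower, with list means of 9.02 to 9.07 in hypomorph against 8.57 to 8.91 in wild type. Tlr7 (1.37), Klk1 (1.03) and Ccr9 (0.87) were called higher and Spib (-0.53) lower. Of the 9 changes 6 were positive, and Ly6d changed by -0.25 and Tcf4 by -0.09. Neutrophil markers had 2 of 8 higher and 1 lower, with list means of 6.58 to 6.65 in hypomorph against 6.30 to 6.55 in wild type. The median log2 change of that list was -0.05, with 3 of 8 positive (Ngp 1.58, Ltf 1.09 and Camp 0.86). Cxcr2 was the gene called lower (-0.83). T and NK cell markers ran from -0.48 to 0.25 in log2 change, with none of 8 called. Over all genes 9.76% were called higher and 8.47% lower. The added poly-A spike-in RNAs averaged 7.69 ± 0.18 in hypomorph and 9.48 ± 0.50 in wild type, the hybridization controls 10.33 in hypomorph and 11.35 in wild type, and the 18S rRNA probe sets 8.76 in hypomorph and 9.43 in wild type. The difference between 3' and 5' beta-actin probe sets was 0.737 ± 0.039 in hypomorph and 0.973 ± 0.042 in wild type (SD, n = 3 each). All gene differences given here lie between groups that also differ in these measures, and the part of these measures in them was not tested. In a mixed cell population fewer cells of a type and less RNA per cell cannot be told apart.

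Of the 39 members, 6 rose and 1 fell in hypomorph at an adjusted p under 0.05 (limma with Benjamini-Hochberg adjustment over all 12393 genes). That is 15.4% of the members called higher, against 9.76% of all genes, and 1 member called lower, against 8.47% of all genes. Members are mostly bright, with 33 of 39 above the median gene level. Among genes above that level, fitted on their own, 24.2% of these 33 members and 21.1% of all genes were called higher, so the members' share lay close to that of genes of like level. The median log2 change (hypomorph minus wild type) was 0.09 over the members and -0.05 over all genes. The p24 proteins held 4 of the 6 higher members, the COPII coat held 1 higher and the 1 lower member, the TRAP complex held 1 higher member, and COPI, the SEC61 group and the Sec22 genes held none. Differences between roles were not tested. Counts depended on single arrays: without hypomorph replicate 1, 2 or 3 the higher members numbered 2, 3 and 2 and the lower members 0 each, and without wild-type replicate 3 they numbered 4 and 0. In the fits without each hypomorph array 5.13%, 7.69% and 5.13% of the members were called higher, against 4.88%, 4.91% and 4.44% of all genes.

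**Figure D1:**
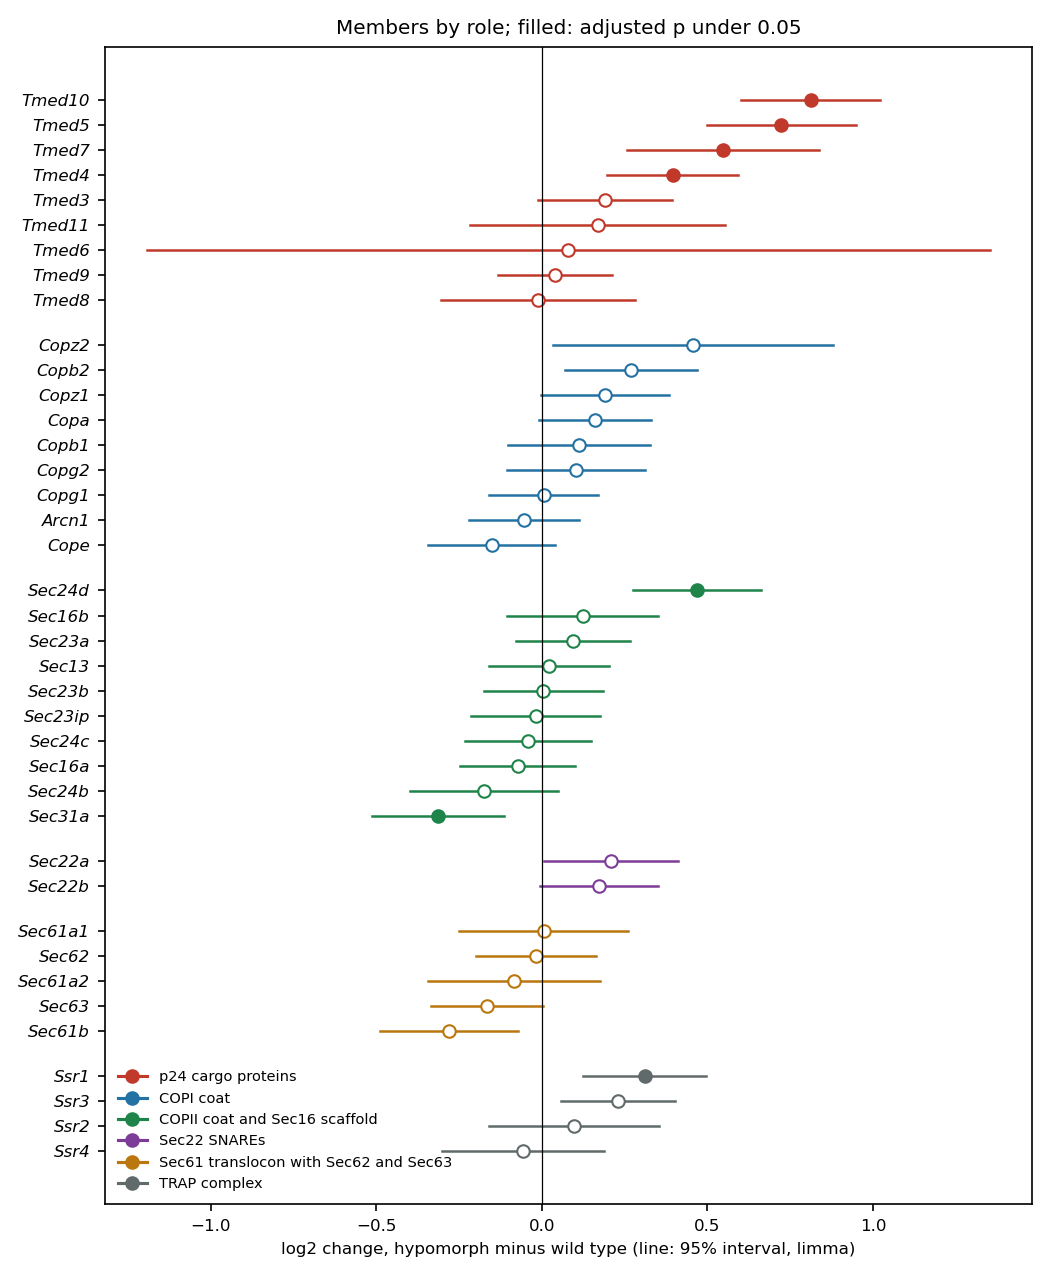
Log2 change (hypomorph minus wild type, x axis) of the 39 members, grouped by role down the page, with the 95% interval from limma as a line and filled points at an adjusted p under 0.05. The 4 filled p24 genes reach from 0.39 to 0.81, whereas the 9 COPI genes lie between -0.15 and 0.46 with none filled.

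To show the DNA in front of the members that rose, the 250 bases before the start site are given, 5' to 3' on the strand of the gene, from RefSeq windows of the mouse build GRCm38.p6. Such windows were matched by symbol for 34 of the 39 members. No window was used for Arcn1, Sec61a1, Ssr2, Tmed7 and Tmed11. Capitals mark 3 short motifs on either strand, with overlapping matches merged: the letters TGACGTG of the XBP1 element, the E-box CACGTG, and the ER stress element part CCACG.
Tmed10, chr12:85374718-85374967, minus strand: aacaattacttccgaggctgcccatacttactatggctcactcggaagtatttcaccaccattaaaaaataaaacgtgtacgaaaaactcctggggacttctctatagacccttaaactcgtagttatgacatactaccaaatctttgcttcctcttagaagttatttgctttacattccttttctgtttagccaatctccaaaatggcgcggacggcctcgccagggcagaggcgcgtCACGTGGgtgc
Tmed5, chr5:108132621-108132870, minus strand: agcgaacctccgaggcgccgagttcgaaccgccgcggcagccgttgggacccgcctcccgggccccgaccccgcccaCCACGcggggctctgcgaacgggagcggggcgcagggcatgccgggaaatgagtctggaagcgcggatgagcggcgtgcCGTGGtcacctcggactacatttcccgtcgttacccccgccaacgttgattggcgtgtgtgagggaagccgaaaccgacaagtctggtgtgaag
Tmed4, chr11:6274838-6275087, minus strand: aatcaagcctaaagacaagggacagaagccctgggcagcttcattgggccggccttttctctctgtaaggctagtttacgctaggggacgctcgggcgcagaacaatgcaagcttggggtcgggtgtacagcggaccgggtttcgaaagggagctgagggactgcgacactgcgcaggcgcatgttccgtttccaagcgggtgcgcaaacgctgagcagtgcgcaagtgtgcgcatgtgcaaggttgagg
Sec24d, chr3:123267246-123267495, plus strand: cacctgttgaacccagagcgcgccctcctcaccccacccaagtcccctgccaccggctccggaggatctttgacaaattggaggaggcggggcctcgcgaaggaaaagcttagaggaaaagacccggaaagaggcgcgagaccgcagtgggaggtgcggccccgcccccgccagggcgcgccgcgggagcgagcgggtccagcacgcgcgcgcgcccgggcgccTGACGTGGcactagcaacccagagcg
Ssr1, chr13:37994209-37994458, minus strand: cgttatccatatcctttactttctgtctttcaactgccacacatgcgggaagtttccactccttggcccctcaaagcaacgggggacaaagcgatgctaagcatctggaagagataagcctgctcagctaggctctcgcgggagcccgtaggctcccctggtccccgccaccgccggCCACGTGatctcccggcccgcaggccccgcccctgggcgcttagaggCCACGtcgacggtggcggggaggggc

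These letters were searched because secretory genes are known targets of the unfolded protein response factors XBP1 and ATF6, and TFEB-type factors bind CACGTG. Searches ran on both strands over 37 windows of 300 bases (250 before and 50 from the start site) and, for comparison, over all 32851 RefSeq windows of that length. The full ER stress element, CCAAT and CCACG with 9 bases between them, was in 0 member windows and in 0.119% of all windows. Its second form ERSE-II, ATTGG and CCACG with 1 base between them, was in 0 and in 0.0365%. CCACG alone was in 27 of 37 member windows (73.0%) and 32.8% of all windows. CACGTG was in 5 member windows (13.5%) and 7.15% of all windows, among them those of Tmed10 and Ssr1. TGACGTG, the core of the XBP1 element, was in 5 member windows (13.5%) and 2.01% of all windows. CCACG can overlap both of the last motifs, and a match is a run of letters, not a measured binding site. Each of these short motifs contains CG, and the comparison windows were not matched to the members for base composition or expression level. The part of such differences in these shares was not tested.

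The 5 windows with TGACGTG belong to Copb1, Copb2, Sec16b, Sec23a and Sec24d, and are shown with 10 bases on either side, on the strand that reads TGACGTG (capitals).
Copb1, chr7:114254691-114254717, plus strand: agtccttggcTGACGTGgaagggggcg
Copb2, chr9:98563715-98563741, minus strand: gccaacccacTGACGTGgaacttccgg
Sec16b, chr1:157506742-157506768, plus strand: tctgtgtggcTGACGTGgcacggcagt
Sec23a, chr12:59011995-59012021, minus strand: tcctccccttTGACGTGgcagaggcgg
Sec24d, chr3:123267460-123267486, plus strand: cccgggcgccTGACGTGgcactagcaa
Of these 5 genes Sec24d was called higher and the other 4 were not called. Of the other 4 members that rose and have a window (Tmed10, Tmed5, Tmed4 and Ssr1), Tmed4 held no match to any of the 5 motifs searched.

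Among the p24 proteins, 4 of 9 measured genes rose and 0 fell in hypomorph, and the median log2 change of the 9 was 0.19. That is 44.4% called higher, against 9.76% of all genes. Among all genes above the median level, fitted on their own, 21.1% were called higher. The rise was largest in Tmed10, the delta member of the family, also called p23. Its log2 values were 10.15, 10.17 and 10.18 in hypomorph against 9.20, 9.43 and 9.44 in wild type. The groups did not overlap, and the SD was 0.012 among hypomorph arrays and 0.136 among wild-type arrays. Tmed10 was 1.76-fold higher in hypomorph (log2 change 0.81, SE 0.089, adjusted p = 0.00236 with limma).

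Tmed5, Tmed7 and Tmed4 followed. Tmed5, of the gamma group, had log2 values of 10.11, 10.26 and 10.19 in hypomorph against 9.34, 9.44 and 9.61 in wild type, with no overlap, a 1.65-fold difference (log2 change 0.72, SE 0.095, adjusted p = 0.00459). Tmed7, also of the gamma group and known from human cells for its part in the transport of TLR4, had 9.56, 9.72 and 9.77 in hypomorph against 8.92, 9.16 and 9.34 in wild type. It was 1.46-fold higher without overlap (log2 change 0.55, SE 0.12, adjusted p = 0.026). Tmed4, of the alpha group, had 8.47, 8.42 and 8.39 in hypomorph against 7.93, 8.15 and 8.01 in wild type, 1.31-fold higher without overlap (log2 change 0.39, SE 0.083, adjusted p = 0.0212). In these 4 genes wild-type replicate 1 had the lowest value of the 6 arrays. Its title carries a different code number from the other arrays, and the labels do not say what this number stands for. A different array version is given for wild-type replicate 3. Without wild-type replicate 1 the 4 log2 changes were 0.73, 0.66, 0.44 and 0.35.

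The calls of Tmed10 and Tmed5 held with limma in all 6 fits that left out 1 array, with adjusted p up to 0.0198 and 0.03. The call of Tmed7 was lost without any 1 hypomorph array (adjusted p of 0.0572 to 0.101), and that of Tmed4 without any 1 hypomorph array or wild-type replicate 3 (0.0545 to 0.0806). With the poly-A spike-in level as a covariate no member was called with limma (1 higher and 0 lower at an unadjusted p under 0.05), the standard errors being 2.78 times as large (median over genes). The log2 change of Tmed10 was 0.43 in that fit that of Tmed5 0.21, that of Sec24d 0.76 and that of Tmed7 -0.23. In the same arrays the hypomorph minus wild-type difference was 1.56 for the mean of the macrophage list and -1.79 for the spike-ins.

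**Figure D2:**
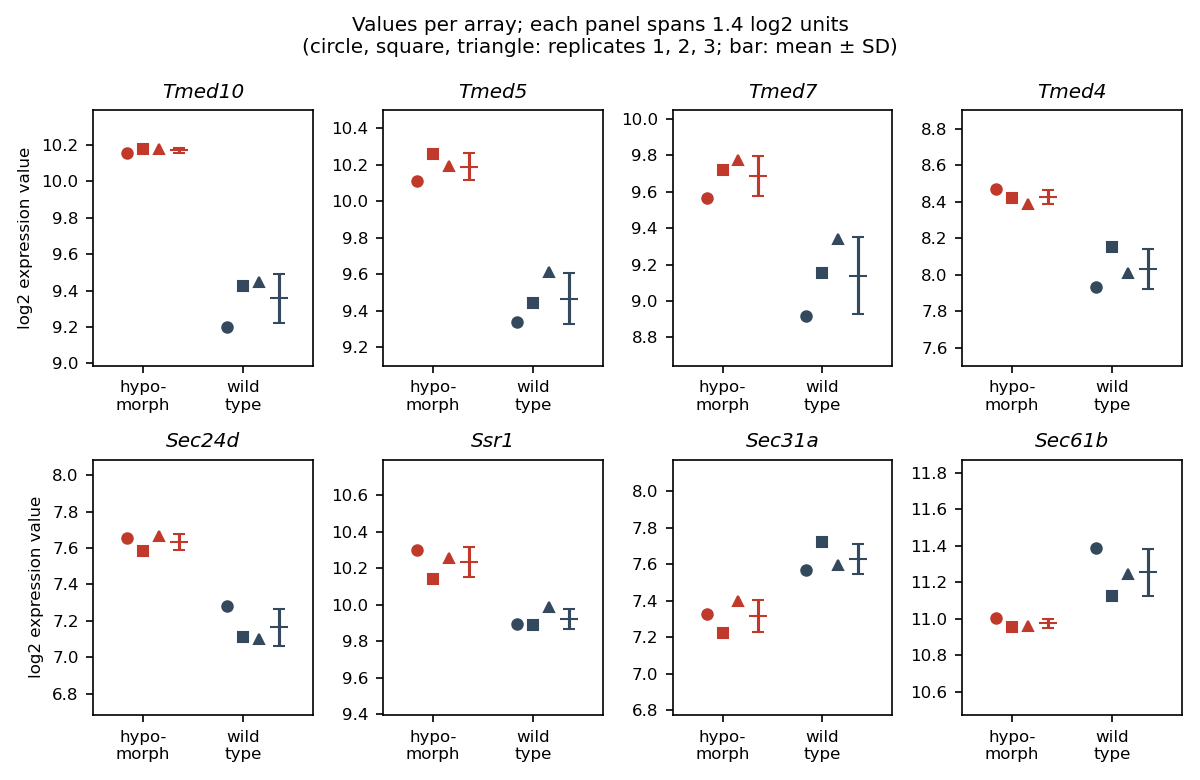
Log2 expression value (y axis, each panel spanning the same range) of the 7 called members and Sec61b in 3 hypomorph arrays and 3 wild-type arrays, with mean ± SD beside the points. The 3 hypomorph values lie above all wild-type values in 6 panels and below them for Sec31a and Sec61b.

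The other 5 p24 genes were not called. Tmed3, of the gamma group, had 9.10, 9.05 and 9.10 in hypomorph against 8.95, 8.97 and 8.75 in wild type, without overlap (log2 change 0.19, adjusted p = 0.169). Tmed9, of the alpha group like Tmed4, had 9.45, 9.37 and 9.45 in hypomorph against 9.44, 9.38 and 9.33 in wild type, with overlap (log2 change 0.04, 95% interval -0.13 to 0.21). Tmed6, Tmed8 and Tmed11 were dim, at percentiles 20.8, 17.4 and 3.95 of gene levels, with changes of 0.08, -0.01 and 0.17. For Tmed6 the interval of -1.19 to 1.35 sets almost no limit, since its arrays ran from 2.60 to 4.29 in hypomorph and from 2.77 to 4.38 in wild type.

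In the COPII coat and its scaffold, 1 of 10 measured genes rose (against 9.76% of all genes) and 1 fell (against 8.47%), with a median change of -0.01. The one that rose was Sec24d, which encodes one of the cargo-binding adaptors of the inner coat. Its log2 values were 7.65, 7.58 and 7.67 in hypomorph against 7.28, 7.11 and 7.10 in wild type, 1.38-fold higher without overlap (log2 change 0.47, SE 0.081, adjusted p = 0.0115). The call was lost without hypomorph replicate 1 (adjusted p = 0.0504) or 3 (0.0612).

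Sec31a, which encodes the outer cage subunit, had 7.33, 7.22 and 7.40 in hypomorph against 7.57, 7.72 and 7.60 in wild type. It was 1.24-fold lower without overlap (log2 change -0.31, SE 0.084, adjusted p = 0.0433). The call was lost without any 1 hypomorph array and without wild-type replicate 2 or 3 (adjusted p of 0.0791 to 0.155). Its cage partner Sec13 averaged 8.77 in hypomorph and 8.75 in wild type, with overlap (log2 change 0.02, 95% interval -0.16 to 0.20).

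None of the remaining COPII genes was called. The inner coat genes Sec23a and Sec23b changed by 0.09 and 0.00, and the intervals kept both within 0.27. Sec24b and Sec24c, the other measured adaptors, changed by -0.18 (95% interval -0.40 to 0.05) and -0.04 (-0.23 to 0.15). Sec24c had 9.25, 9.14 and 9.19 in hypomorph against 9.26, 9.31 and 9.13 in wild type, with overlap. Sec16a and Sec16b, scaffolds of ER exit sites, changed by -0.07 and 0.12, the second from a level near the bottom of the array (2.75 in hypomorph, 2.62 in wild type). Sec23ip, a SEC23-binding protein gene, changed by -0.02.

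None of the 9 coatomer genes was called in either direction in the main limma fit. At an unadjusted p under 0.05 stood Copb2 (log2 change 0.27, adjusted p = 0.0699) and Copz2 (0.46, adjusted p = 0.122). Copb2 was called higher by limma with genes above the median level (adjusted p = 0.0301) and with trend and robust eBayes (0.0341). It was called in no other setting. The median change was 0.11. In 4 genes the hypomorph arrays lay wholly above wild type, a pattern found in 18.5% of all genes, and in Cope they lay wholly below, a pattern found in 22.5%. Copb2, which encodes a cargo-binding subunit, had 9.06, 9.18 and 9.22 in hypomorph against 8.79, 8.89 and 8.98 in wild type. Copa, the alpha subunit gene, averaged 9.40 in hypomorph and 9.24 in wild type (log2 change 0.16, 95% interval -0.01 to 0.33), and Copz1, a zeta subunit gene, averaged 8.79 in hypomorph and 8.60 in wild type (0.19, adjusted p = 0.153).

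Of the other COPI genes, Copb1 changed by 0.11, Copg1 by 0.01, Copg2 by 0.10, the delta subunit gene Arcn1 by -0.05 and Cope, the epsilon subunit gene, by -0.15. Copz2, the dimmest of the 9 genes on the array at 4.72 in hypomorph and 4.27 in wild type, had the widest interval, 0.03 to 0.88. For the other 8 no interval reached beyond 0.47 in size.

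In the translocon, the median log2 change was 0.16 over 4 TRAP genes and -0.08 over 5 genes of the SEC61 group. Of the 4 TRAP genes 1 was called higher (25%, against 9.76% of all genes). Ssr1, the TRAP alpha subunit gene, had 10.30, 10.14 and 10.26 in hypomorph against 9.89, 9.89 and 9.99 in wild type, 1.24-fold higher without overlap (log2 change 0.31, SE 0.079, adjusted p = 0.0374). The call was lost in every fit that left out 1 array (adjusted p of 0.0554 to 0.132) and after quantile normalization (log2 change 0.21, adjusted p = 0.105). Ssr3, the gamma subunit gene, had 9.62, 9.59 and 9.61 in hypomorph against 9.31, 9.37 and 9.45 in wild type without passing (0.23, adjusted p = 0.071). Ssr2 and Ssr4 changed by 0.10 and -0.06, with overlapping groups.

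The 5 genes of the SEC61 channel and its partners gave no call with limma, and 1 had an unadjusted p under 0.05. That was Sec61b, the small beta subunit of the channel, with 11.00, 10.96 and 10.96 in hypomorph against 11.39, 11.13 and 11.25 in wild type. Its hypomorph arrays lay below all wild-type arrays (log2 change -0.28, adjusted p = 0.0697). Sec61b was called lower with quantile-normalized arrays (-0.40, adjusted p = 0.0267), with genes above the median level (0.031), with trend and robust eBayes (0.0236) and with array weights (0.0414). It was also called when wild-type replicate 2 was left out (-0.34, adjusted p = 0.0411). It was not called with the replicate block, with the spike-in covariate or when any other array was left out. The channel-forming alpha subunit gene Sec61a1 averaged 10.08 ± 0.03 in hypomorph and 10.07 ± 0.19 in wild type (SD, n = 3 each; 95% interval of the change -0.25 to 0.26). Its paralog Sec61a2 changed by -0.08 and Sec62 by -0.02. Sec63, which recruits the ER chaperone BiP to the channel, changed by -0.17 (adjusted p = 0.156).

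Neither of the 2 Sec22 genes measured was called. Sec22b, a SNARE of ER-Golgi transport that also takes part in delivery of ER proteins to phagosomes in dendritic cells, had 8.41, 8.27 and 8.26 in hypomorph against 8.15, 8.14 and 8.13 in wild type. These groups did not overlap (log2 change 0.17, 95% interval -0.01 to 0.35, adjusted p = 0.16). Sec22a changed by 0.21 (adjusted p = 0.139), also without overlap.

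Other probe sets of the same genes served as a further reading. They hybridize the same RNA on the same arrays and are not independent samples. The called members Tmed10, Sec24d and Sec31a have only 1 probe set each and so no such reading. Tested over all 20379 single-gene probe sets, of which 9.95% were called higher and 7.73% lower, 5 of the 28 other probe sets of members were called higher and 0 lower. The second probe set of Tmed5 gave a log2 change of 0.81 (adjusted p = 0.0277), and 2 of the 3 others of Tmed7 gave 0.40 and 0.44 (adjusted p = 0.0347 and 0.0221). The third, at 2.83 in hypomorph and 2.93 in wild type, gave -0.10. The other probe set of Tmed4, also dim at 2.54 in hypomorph and 2.51 in wild type, gave 0.03. Of the 2 others of Ssr1, 1 was called (0.39, adjusted p = 0.0496) and 1 was not (0.14).

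The 4 probe sets of Sec63 disagreed. The brightest, which stood for the gene, gave -0.17, and the others gave 0.25, 0.50 and -0.31. The one at 0.50 was called higher (adjusted p = 0.0357), with 7.24, 7.46 and 7.39 in hypomorph against 6.63, 6.90 and 7.06 in wild type. The one at -0.31 missed the threshold (adjusted p = 0.0552), with 5.90, 5.81 and 5.82 in hypomorph against 6.28, 6.02 and 6.18 in wild type. Neither pair of groups overlapped, so no direction is given for Sec63. The probe sets of Ssr4 also differed, at -0.06 for the brightest and 0.00 and 0.52 for the others, with none called. The one at 0.52 averaged 5.31 in hypomorph and 4.79 in wild type, without overlap (adjusted p = 0.0927 with limma). The 6 probe sets of Sec61a1, in contrast, lay between -0.05 and 0.10.

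**Figure D3:**
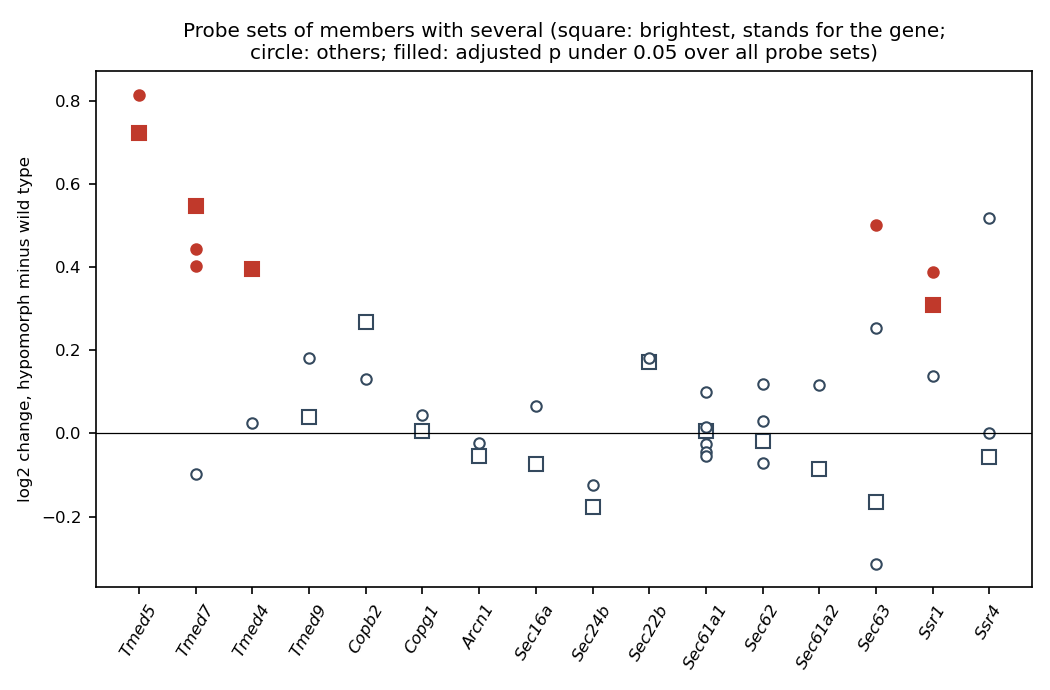
Log2 change (hypomorph minus wild type, y axis) of every probe set of the 16 members that have several, with squares for the brightest and filled symbols at an adjusted p under 0.05 over all probe sets. The Sec63 symbols stretch from -0.31 to 0.50, whereas 3 of the 4 Tmed7 symbols sit between 0.40 and 0.55.

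Paralogs from the coats, the Sec16 scaffold, the SEC61 channel and the p24 proteins were compared within each array. A shift of the whole array cancels in their difference. Of 11 pairs listed, 8 had both genes measured, and 3 arrays against 3 cannot give an exact permutation p below 0.1. For Sec24d minus Sec24c the log2 difference was -1.60, -1.56 and -1.53 in hypomorph against -1.98, -2.20 and -2.03 in wild type. It was 0.51 higher in hypomorph, without overlap (two-sided exact permutation p = 0.1, adjusted over 8 pairs 0.267). For Tmed4 minus Tmed9 it was -0.99, -0.95 and -1.06 in hypomorph against -1.51, -1.23 and -1.32 in wild type, 0.36 higher (exact p = 0.1, adjusted 0.267). That gap was 0.10 when each gene was the mean of its probe sets. No pair passed the test, and a difference between 2 probe sets does not say which paralog is more abundant.

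Sec16b minus Sec16a was 0.20 higher (exact p = 0.1, adjusted 0.267), with the first gene close to the bottom of the array. Tmed7 minus Tmed3 was 0.36 higher in hypomorph with overlapping groups (exact permutation p = 0.2, adjusted 0.4), 0.13 with the mean of probe sets and 0.22 without wild-type replicate 1. The differences were 0.27 for Copz2 minus Copz1, 0.10 for Copg2 minus Copg1, 0.09 for Sec23a minus Sec23b and 0.09 for Sec61a1 minus Sec61a2, all with overlap (exact p from 0.3 to 0.6, adjusted 0.457 to 0.6). The last changed sign with the mean of probe sets (-0.02) and after quantile normalization (-0.05).

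**Figure D4:**
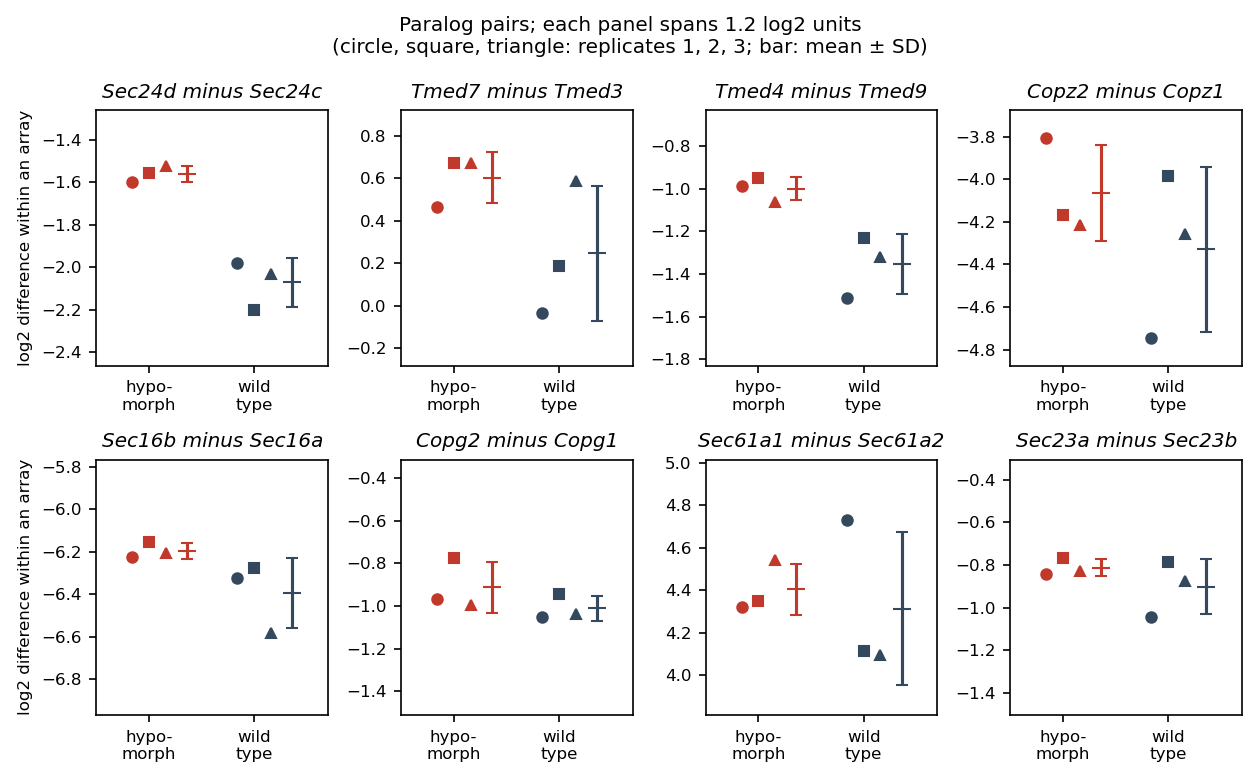
Log2 difference between the genes of each of 8 paralog pairs within an array (y axis, each panel spanning the same range) for 3 hypomorph and 3 wild-type arrays, with mean ± SD beside the points. The gene with the larger log2 change comes first in each pair. Sec24d minus Sec24c and Tmed4 minus Tmed9 are higher in every hypomorph array than in any wild-type array.

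Other genes of the same pathway were taken from 6 lists with 115 genes in all, and 95 could be measured on single-gene probe sets. Of these, 15 rose and 2 fell in hypomorph, with a median log2 change of 0.10. That is 15.8% called higher, against 9.76% of all genes, and 2.11% called lower, against 8.47% of all genes. Among genes above the median level, fitted on their own, 35.2% of 88 genes of these lists and 21.1% of all genes were called higher. By list the share called higher ran from 0% to 27.3%, and differences between lists were not tested. Without hypomorph replicate 1, 2 or 3 the count of higher genes was 2, 3 and 0 (2.11%, 3.16% and 0% of the 95). These shares lay below the 4.88%, 4.91% and 4.44% of all genes in those fits. Without wild-type replicate 2 the count was 8. The 0 is a limma count, beside which 23 genes were higher at an unadjusted p below 0.05.

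The list for the COPII GTPase, exit sites and cargo receptors had 6 of 22 higher (27.3%, against 9.76% of all genes) and 0 lower. Mcfd2, which forms a cargo receptor with LMAN1, had log2 values of 9.58, 9.44 and 9.54 in hypomorph against 8.49, 9.01 and 8.87 in wild type (log2 change 0.73, adjusted p = 0.0152). Surf4, another cargo receptor gene, averaged 8.63 in hypomorph and 8.25 in wild type (0.39, adjusted p = 0.0207). Of 11 genes of the ARF1 cycle and the KDEL receptors 2 rose (18.2%, against 9.76% of all genes) and 0 fell. These were the small GTPase gene Arf4, at 9.43, 9.39 and 9.46 in hypomorph against 8.80, 8.92 and 9.02 in wild type (0.51, adjusted p = 0.00916), and Kdelr1, which encodes a receptor that retrieves ER proteins (0.29, adjusted p = 0.0319).

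Of 18 tether genes 2 rose (11.1%, close to the 9.76% of all genes) and 2 fell (against 8.47% of all genes). The TRAPP subunit gene Trappc1 and the syntaxin-binding Scfd1 rose (0.32 and 0.41, adjusted p = 0.0283 and 0.0433). Use1 and Zw10, both of the tethering machinery that receives COPI vesicles at the ER, fell (-0.30 and -0.28, adjusted p = 0.0326 and 0.0392). Of 16 signal peptidase and oligosaccharyltransferase genes 3 rose (18.8%, against 9.76% of all genes) and 0 fell. Magt1 (0.37, adjusted p = 0.0145) and Spcs1 (0.27, adjusted p = 0.0383) had the smallest p. Of 22 other ER membrane insertion genes 2 rose (9.09%, close to the 9.76% of all genes) and 0 fell. They were Hspa5, which encodes the ER chaperone BiP, at 12.36, 12.23 and 12.33 in hypomorph against 11.90, 11.77 and 11.79 in wild type (0.49, adjusted p = 0.00898), and Emc4 (0.28, adjusted p = 0.0361). None of 6 signal recognition particle and receptor genes was called with limma, and their changes ran from -0.29 to 0.18.

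**Figure D5:**
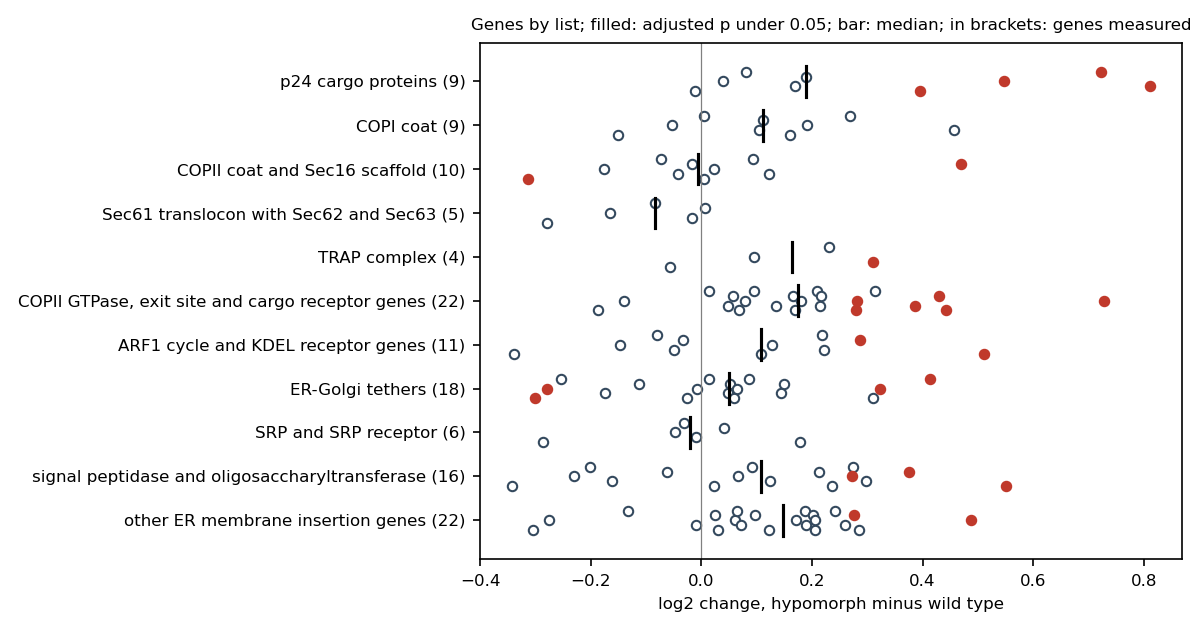
Log2 change (hypomorph minus wild type, x axis) of single genes in 5 roles of the members and 6 lists of other pathway genes, with filled points at an adjusted p under 0.05 and a bar at the median. The p24 row and the COPII GTPase, exit site and cargo receptor row reach to 0.81 and 0.73, and the 6 signal recognition particle genes hold no filled point.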

How the data were processed

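Gene expression was measured on Affymetrix arrays given as MOE430A, and the deposited values are 1 log2 value per probe set and array. The array titles name other versions of this array. Affymetrix Power Tools is the software named, per the submitters' processing notes. The sources used here do not give the version, background correction or summarization. The log base and the normalization between arrays were inferred from the range and close medians of the values. Such normalization hides differences in total RNA per cell. Precision is limited by the number of arrays.

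Of 22690 probe sets, 1 had no value, 64 were controls, and 20379 named 1 gene in the platform annotation, covering 12393 genes. No filter on dim genes was applied. Hypomorph was tested against wild type with limma 3.58.1 (R 4.3.3), by two-sided lmFit and eBayes without covariates on all 6 arrays, with Benjamini-Hochberg adjustment over all genes. The fit was tested on simulated data. Exact permutation tests used scipy 1.17.1, and matplotlib 3.10.9 drew the plots.

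The members, gene lists and tests were chosen with earlier results of these data known. Called members and their listed paralogs are given array by array, and in every other pathway list the 2 called genes of smallest p in each direction are named. Array values of other genes (Copb2, Sec22b, Sec61b, Ssr3, Mcfd2, Arf4, Hspa5 and probe sets of Sec63) were picked with their values known. Other settings tried were averaged probe sets, each probe set on its own, a filter at the median level, quantile normalization, centring, trend and robust eBayes, array weights, a replicate block, the poly-A spike-in mean as a covariate, and leaving out each array.

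Replicate numbers are shared between the groups. Deviations of arrays with the same number correlated across genes at 0.153, 0.011 and 0.106, so the numbers were not taken to pair the arrays.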

Additional observations from a re-analysis of the deposited data

How the results depend on the processing

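Counts of called members moved with the processing. The 6 members higher in hypomorph became 4 to 8 under 7 other settings and 0 with the spike-in covariate (limma; 1 at an unadjusted p under 0.05), and ran from 2 to 5 with 1 array left out. All genes moved too: 24.2% of members and 21.1% of all genes were called higher above the median level, 20.5% of members and 11.5% of all genes with trend and robust eBayes, and 0 of all 12393 genes with the covariate (1149 at an unadjusted p under 0.05 in either direction). The 1 lower member became 2 with genes above the median level, quantile normalization, trend and robust eBayes or array weights, and 0 with the replicate block or the spike-in covariate (2 and 0 at an unadjusted p under 0.05), with a range of 0 to 1 when 1 array was left out. With the replicate number as a block 4 members were higher, the calls of Tmed4, Ssr1 and Sec31a being lost (adjusted p = 0.0647, 0.0902 and 0.115). Hypomorph replicates 1 and 3 correlated best with the wild-type array of their own number (0.153 and 0.106). Hypomorph replicate 2 correlated best with wild-type replicate 3 (0.138), not with its own number (0.011).

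The 15 other secretory genes higher in hypomorph became 31 with genes above the median level (35.2% of those tested, against 21.1% of all genes). They became 28 with trend and robust eBayes (29.5%, against 11.5% of all genes) and 3 with the replicate block (3.16%, against 6.08% of all genes). With the spike-in covariate 0 were called (7 at an unadjusted p under 0.05). The 2 lower genes became 5 with the median filter, 1 after centring, and 0 with the block or the covariate. With 1 array left out the ranges were 0 to 12 higher and 0 to 2 lower.

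Among called members, Tmed7 changed sign with the spike-in covariate (-0.23) and by 1 dim probe set (-0.10). Of the 32 members not called, 14 changed sign in at least 1 setting other than the covariate, namely Copg1, Sec13, Sec23b, Sec23ip, Sec61a1, Sec61a2, Sec62, Sec63, Ssr2, Ssr4, Tmed6, Tmed8, Tmed9 and Tmed11. The pair Sec61a1 minus Sec61a2 was -0.017 by the mean of probe sets, -0.048 after quantile normalization, and -0.018 to 0.299 with 1 array left out. Low signal limits Sec16b, Tmed6, Tmed8 and Tmed11.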
